A study of Homo sapiens with 5 samples.

Results

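The LIM homeobox genes examined here are LHX1, LHX2, LHX3, LHX4, LHX5, LHX6, LHX8, LHX9, ISL1 and ISL2. They were taken as a named list of 10 genes, all 10 of which matched RefSeq records of GRCh38.p14, out of 19974 protein-coding gene records on the autosomes and the X chromosome. Each gene was read over its record plus 2 kb on either side, called its window below. Chromatin immunoprecipitation with sequencing (ChIP-seq) had been run on HT1376, an established human bladder carcinoma cell line, after 8 days with 250 nM CPI-0209 or with the vehicle DMSO. CPI-0209 inhibits EZH2, the catalytic subunit of Polycomb repressive complex 2. The 4 groups were H3K27me3 in CPI-0209 cells, H3K27me3 in DMSO cells, EZH2 in CPI-0209 cells and EZH2 in DMSO cells, with 1 library each. No test between conditions was therefore possible, and all differences are descriptions of these libraries.

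LIM homeobox proteins are transcription factors with a DNA-binding homeodomain and LIM zinc-finger domains that bind cofactors such as LDB1. They specify cell types in the embryo, above all classes of neurons, and also pituitary, limb, gonad, heart and pancreatic islet cells, and most occur as pairs of close relatives. Genes of this kind are classical Polycomb targets in tissues where they are not used: Polycomb repressive complex 2 trimethylates lysine 27 of histone H3 over their promoters, and the mark H3K27me3 accompanies repression. Bladder epithelium is not a tissue these factors are known for as a group.

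The deposited lists give only the chromosome, start and end of each called interval, so read depth and the strength of a call are unknown. Where nothing was called, the mark may still have been present below the threshold of the call. H3K27me3 intervals covered 113.8 Mb in CPI-0209 and 315.1 Mb in DMSO, and EZH2 intervals covered 226.3 Mb in CPI-0209 and 193.4 Mb in DMSO. Intervals of the same list can overlap, and stretches under 2 intervals made up 12.9% of the H3K27me3 length in CPI-0209, 62.7% in DMSO, 50.8% of the EZH2 length in CPI-0209 and 17.8% in DMSO. What such a stretch represents is not stated. Each list may combine more than 1 set of calls, to a different extent in each condition, and coverage and widths carry that doubt, which was not tested. Stretches under 2 intervals are therefore also reported separately. The lists hold no expression values, so the cell line's identity and the activity of these genes could not be checked.

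The ISL1 and ISL2 promoters are shown because these close relatives both had an EZH2 call over the start but differed in H3K27me3. The 250 bases before each RefSeq start (GRCh38.p14, from RefSeq) are printed 5′ to 3′ on the plus strand, with CG dinucleotides in capitals. ISL1 lies at chr5:51383198-51383447, where the record of the non-coding ISL1-DT overlaps it, and ISL2 at chr15:76336523-76336772.
ISL1: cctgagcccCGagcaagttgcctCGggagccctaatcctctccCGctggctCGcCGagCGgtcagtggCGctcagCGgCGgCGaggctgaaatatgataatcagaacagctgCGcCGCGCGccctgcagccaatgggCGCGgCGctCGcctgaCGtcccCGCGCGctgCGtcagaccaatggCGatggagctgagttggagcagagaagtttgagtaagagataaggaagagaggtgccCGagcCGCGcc
ISL2: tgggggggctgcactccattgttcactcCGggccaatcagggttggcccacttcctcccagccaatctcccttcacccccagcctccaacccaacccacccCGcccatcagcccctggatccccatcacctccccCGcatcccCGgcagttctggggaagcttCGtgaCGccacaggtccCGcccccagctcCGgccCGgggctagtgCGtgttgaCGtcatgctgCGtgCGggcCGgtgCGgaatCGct
The ISL1 stretch holds 27 CG dinucleotides and the ISL2 stretch 16. Of all 35116 RefSeq start windows, 17.7% hold at least 27 and 41.0% at least 16. Both stretches hold the letters CCAAT or ATTGG (2 matches each), which 32.0% of all windows hold, and both hold TGACGT or ACGTCA, which 7.10% hold; the ISL2 matches to these letters overlap in 1 site. These letters were chosen after the sequences had been read, and a match is a description only. TAATTA, a core recognised by many homeodomains, occurred in none of the 8 outermost member windows and in 4.35% of all windows. Among those 8 windows the CG count ran from 12 at LHX8, which carried H3K27me3, to 30 at LHX4, which did not. LHX3 and LHX4 differed in H3K27me3 in the same way as ISL1 and ISL2 but are not printed. Their CG counts ran in the other order, 26 at the marked LHX3 and 30 at LHX4. A link between CG count and the mark was not tested.

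Across the family, 8 of the 10 genes carried H3K27me3 in CPI-0209 cells and the same 8 in DMSO cells, namely all but LHX4 and ISL2. The background, the share of all protein-coding gene windows with at least 1 bp called, was 24.5% in CPI-0209, 34.2% in DMSO and 24% in both. The 8 members called in DMSO were 8 of 8 called in CPI-0209, against 70.2% of all windows called in DMSO. EZH2 was called at all 10 genes in both conditions, against 75.1% of all gene windows in CPI-0209, 58.8% in DMSO and 56.3% in both. At least 50% of the window was under H3K27me3 at 6 genes in CPI-0209 and 7 in DMSO, where 7.99% and 16.2% of all windows reached that share. For EZH2 it was 8 genes in CPI-0209 and 6 in DMSO, against 19.7% and 15.3% of all windows. The 10 windows total 276.1 kb. H3K27me3 covered 119.4 kb of them in CPI-0209 and 137.6 kb in DMSO, a ratio of 0.867 (log2 −0.21), while over all protein-coding windows the ratio was 0.424 (log2 −1.24). The members' log2 ratio was −1.08 over stretches under 2 intervals. It turned to 0.57 with only the widest DMSO intervals kept, up to the total length of the CPI-0209 list. These ratios were computed for the members only, so −1.24 is not their background. Over the whole lists, H3K27me3 stretches under 2 intervals totalled 14.73 Mb in CPI-0209 and 197.5 Mb in DMSO. EZH2 covered 140.3 kb in CPI-0209 and 144.7 kb in DMSO, a ratio of 0.970 (log2 −0.04), against 1.18 (log2 0.24) over all windows. Over stretches under 2 intervals the members' EZH2 log2 ratio turned to 0.37. Such stretches totalled 114.9 Mb in CPI-0209 and 34.38 Mb in DMSO over the whole EZH2 lists. Of the H3K27me3 length in the members' windows in DMSO, 86.7% was also called in CPI-0209, against 42.0% over all windows. Counted over stretches under 2 intervals in both lists, the members' share was 47.4%. That share was not computed over all windows, so 42.0% is not its background.

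**Figure D1:**
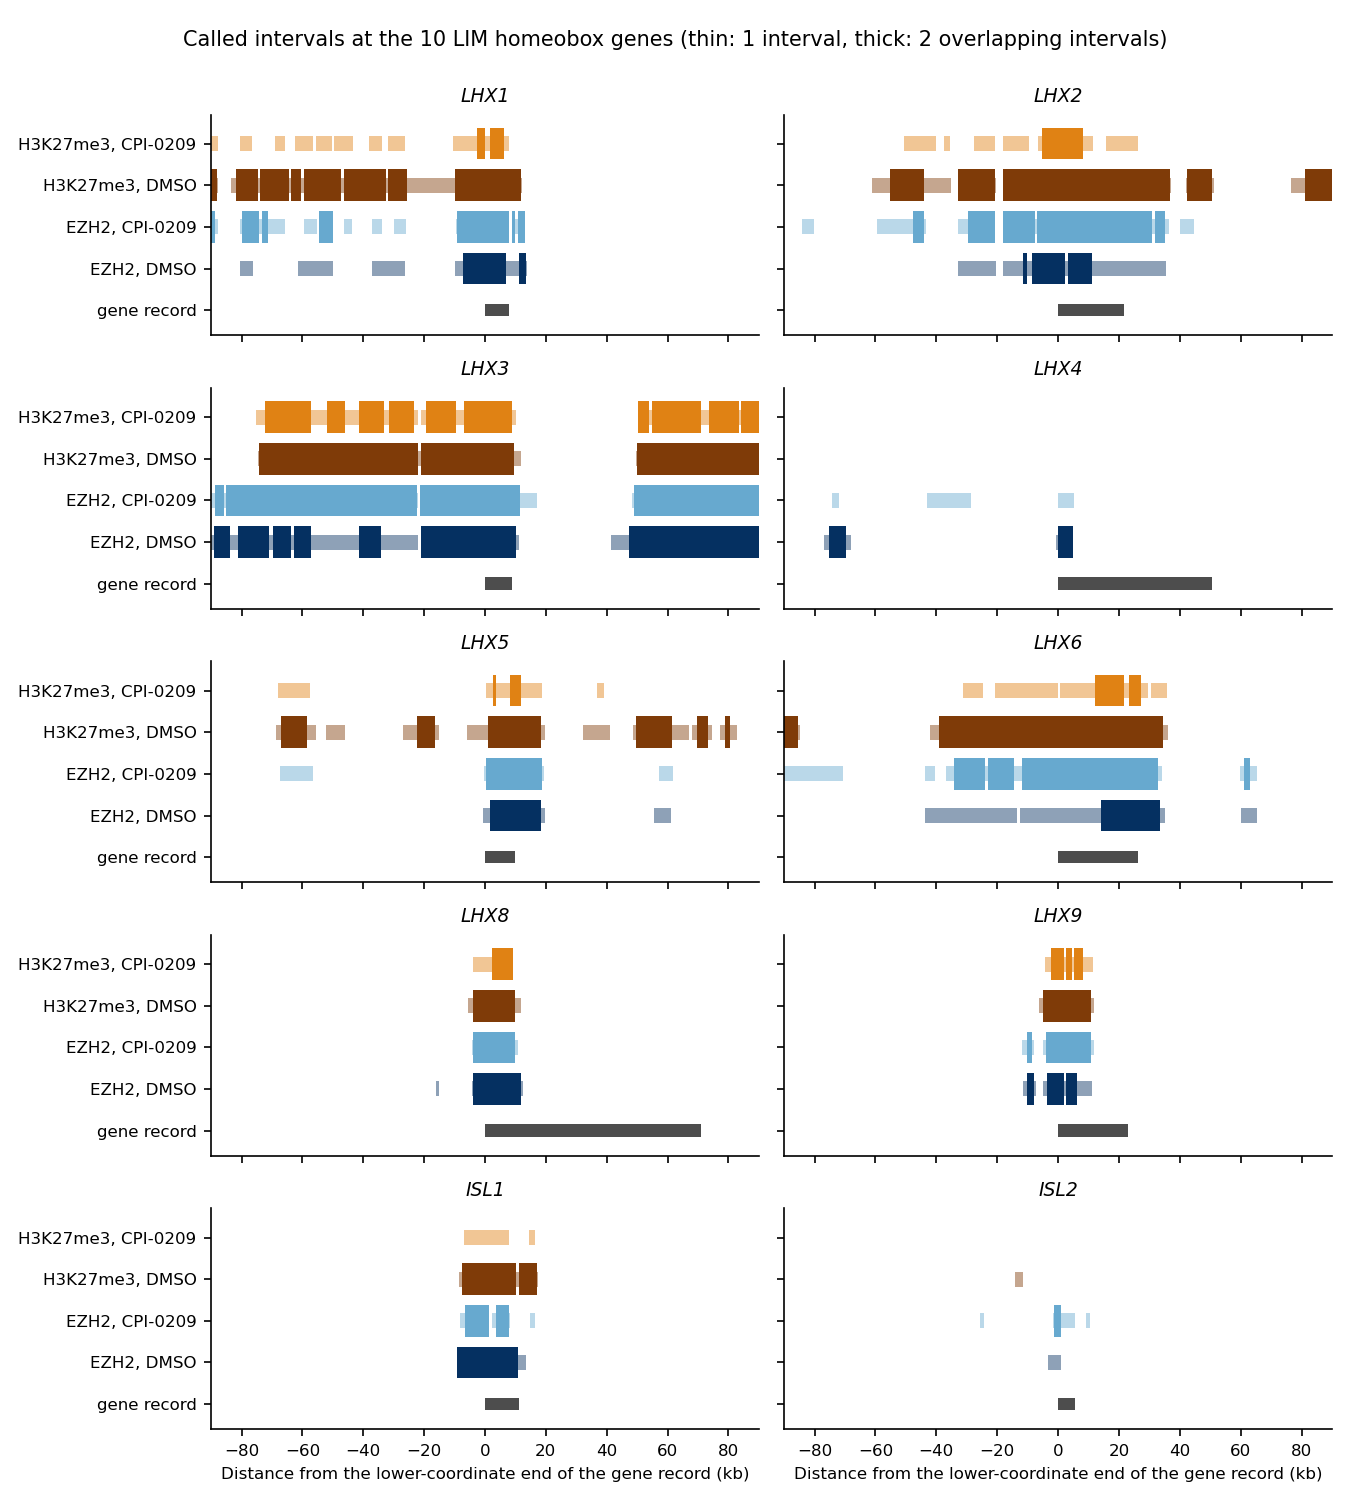
Called intervals around each of the 10 genes, by distance in kb from the lower-coordinate end of the gene record (grey bar); thin bars are stretches under 1 interval, thick bars under 2, and CPI-0209 rows lie above DMSO rows. H3K27me3 is called at 8 genes in both conditions and at LHX4 and ISL2 in neither, while EZH2 is called at all 10.

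LHX1 and LHX5 are close relatives. LHX1 acts in the head organiser, kidney and Purkinje cells, and LHX5 in forebrain and hippocampal development. LHX1 (chromosome 17, 36936785 to 36944612) had 84.7% of its window under H3K27me3 in CPI-0209 and 100% in DMSO. Its widest H3K27me3 domain, a run of overlapping intervals merged, measured 18.4 kb in CPI-0209 (36926401 to 36944800) and 95.6 kb in DMSO (36853201 to 36948800). The DMSO domain ran along the lower-coordinate side of the gene over the whole of LHX1-DT, a long non-coding RNA gene, and in CPI-0209 it was broken into 8 pieces. The EZH2 domain at LHX1 measured 17.4 kb in CPI-0209 and 23.6 kb in DMSO, so EZH2 and the CPI-0209 H3K27me3 lay over much the same stretch around the gene. LHX5 (chromosome 12, 113462033 to 113471871) had 82.9% of its window under H3K27me3 in CPI-0209 and 100% in DMSO, in single domains of 18.4 kb and 25.6 kb. Its EZH2 domain measured 19.8 kb in CPI-0209 and 20.2 kb in DMSO. At LHX5 the length not called in CPI-0209 lay at the outer edges of the domain, 6.40 kb on the lower-coordinate side and 0.80 kb on the other, with none inside.

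LHX2 and LHX9 form another pair. LHX2 patterns forebrain cortex, eye and hair follicle stem cells, and LHX9 is needed for gonad formation. LHX2 (chromosome 9, 124011768 to 124033301) had 83.6% of its window under H3K27me3 in CPI-0209, in 2 pieces of 18.2 kb and 10.4 kb, and 100% in DMSO, in a domain of 55.2 kb. EZH2 covered 100% of the LHX2 window in both conditions, in domains of 54.4 kb in CPI-0209 and 53.4 kb in DMSO. Here EZH2 kept the extent of the DMSO H3K27me3 domain while H3K27me3 itself was called over 67.4% of it. LHX9 (chromosome 1, 197912464 to 197935478) differed little between the libraries. H3K27me3 covered 49.4% of its window in CPI-0209 and 51.6% in DMSO, with domains of 15.8 kb and 18.2 kb. EZH2 covered 51.6% in CPI-0209 and 48.6% in DMSO, with domains of 16.8 kb and 16.0 kb. In all 4 libraries the LHX9 calls lay over the start and the first part of the gene and left the remainder of the record uncalled.

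LHX6 and LHX8 direct neurons that arise in the ventral forebrain, LHX6 cortical interneurons and LHX8 cholinergic neurons, and both act in tooth-forming tissue. LHX6 (chromosome 9, 122202582 to 122228957) had 97.4% of its window under H3K27me3 in CPI-0209 and 100% in DMSO. The DMSO domain of 78.2 kb had its CPI-0209 counterpart in 4 pieces, of which the widest, 29.0 kb, held nearly the whole gene. EZH2 covered 100% of the window in both conditions, and its domain measured 71.0 kb in CPI-0209 and 47.8 kb in DMSO. That order depends on a short break in the DMSO calls: with gaps under 5 kb joined, the widths were 78.0 kb in CPI-0209 and 78.8 kb in DMSO. LHX8 (chromosome 1, 75128434 to 75199454) has the longest record of the 10 genes, 71.0 kb, and was marked only near its start. H3K27me3 covered 15.2% of its window in CPI-0209 and 18.6% in DMSO, in domains of 13.2 kb and 17.6 kb. EZH2 covered 17.3% in CPI-0209 and 19.4% in DMSO, in domains of 15.2 kb and 16.8 kb.

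LHX3 and LHX4 both build the anterior pituitary and act in motor neuron development, and only LHX3 was marked. LHX3 (chromosome 9, 136196250 to 136205128) had 95.9% of its window under H3K27me3 in CPI-0209 and 100% in DMSO. The widest domain measured 31.4 kb in CPI-0209 and 86.2 kb in DMSO, but 97.2% of the DMSO domain was called in CPI-0209, in 2 pieces with 1.00 kb between them. With gaps under 5 kb joined the widths were 85.6 kb in CPI-0209 and 86.2 kb in DMSO, so the narrower LHX3 domain rests on that gap. EZH2 covered the whole LHX3 window in both conditions. LHX4 (chromosome 1, 180228375 to 180278984) had no H3K27me3 in either condition, and the nearest H3K27me3 domain lay 396 kb away in CPI-0209 and 395 kb in DMSO. It did carry EZH2, over 9.52% of its window in CPI-0209 and 10.3% in DMSO. The LHX4 call was 1 domain of 5.20 kb in CPI-0209 (180228401 to 180233600) and 5.60 kb in DMSO (180227601 to 180233200), across the RefSeq start at 180230264.

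ISL1 and ISL2 act in motor neurons, and ISL1 also in pancreatic islets and the second heart field. ISL1 (chromosome 5, 51383448 to 51394730) had the lowest retained share of the window among the 8 marked genes, although over the whole DMSO domain LHX1 was lower, at 55.4% against 66.7% at ISL1. H3K27me3 covered 65.1% of its window in CPI-0209, under a domain from 51376401 to 51391400, and 100% in DMSO, under a domain from 51375001 to 51400800. The start side stayed called, with the CPI-0209 domain reaching 7.05 kb upstream and 7.95 kb downstream of the start, against 8.45 kb and 17.4 kb in DMSO. EZH2 at ISL1 covered 59.9% of the window in CPI-0209 and 100% in DMSO, with the widest domain at 9.40 kb in CPI-0209 and 22.6 kb in DMSO. ISL2 (chromosome 15, 76336773 to 76342475) had no H3K27me3 in its window in either condition, and the nearest domain lay 156 kb away in CPI-0209 and 11.6 kb in DMSO. EZH2 at ISL2 covered 72.1% of the window in CPI-0209 and 31.2% in DMSO, in domains of 7.0 kb (76335201 to 76342200) and 4.40 kb (76333401 to 76337800). The CPI-0209 call ran from the promoter printed above through most of the gene, and the DMSO call ended 1.03 kb past the start. With the 2 kb flank, ISL2 and ISL1 thus had the largest differences in EZH2 coverage, 40.9 and −40.1 percentage points (CPI-0209 minus DMSO), in opposite directions. That ranking depends on the setting. With a 10 kb flank LHX3 differed most, with 94% under EZH2 in CPI-0209 and 73.2% in DMSO. Over stretches under 2 intervals LHX6 differed most, with 100% in CPI-0209 and 47.3% in DMSO.

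**Figure D2:**
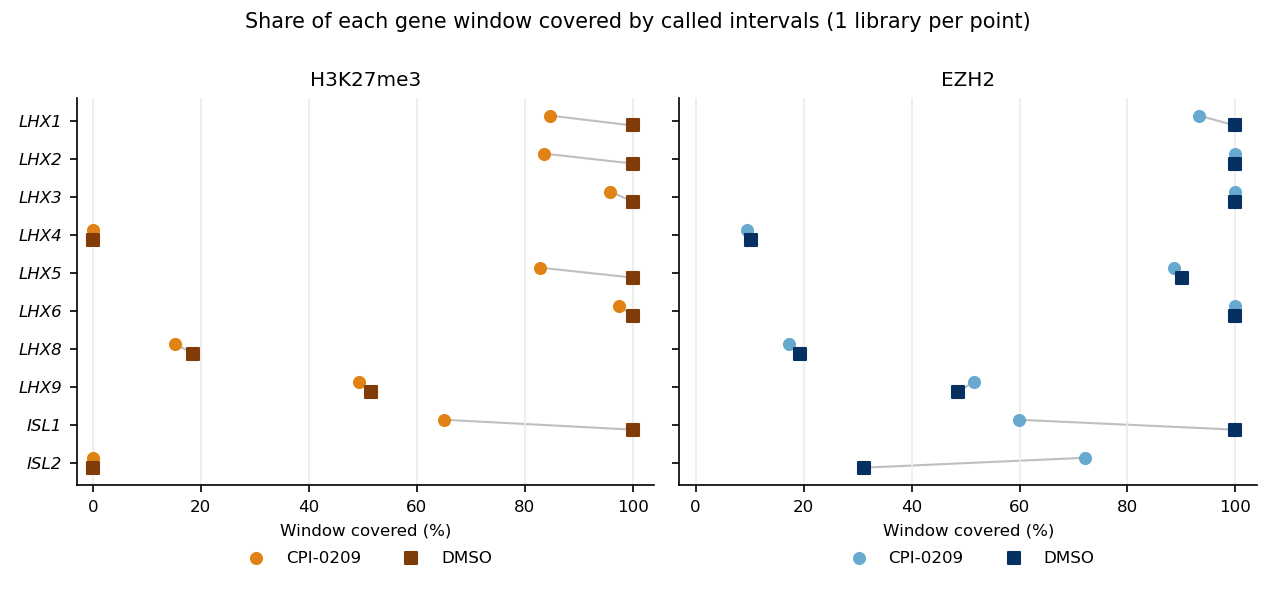
Percent of each gene window covered by called intervals, for H3K27me3 (left) and EZH2 (right); circles are CPI-0209 and squares DMSO, 1 library per point. H3K27me3 coverage is lower in CPI-0209 at each of the 8 marked genes, with the widest gap at ISL1 (65.1% against 100%), and EZH2 coverage is higher in CPI-0209 at ISL2 (72.1% against 31.2%).

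EZH2 without H3K27me3, as at LHX4 and ISL2, was a common state: 30.1% of all protein-coding gene windows had EZH2 in both conditions and H3K27me3 in neither, and so had 10 of 12 housekeeping genes. Of the 10 LIM homeobox genes these were the 2 without H3K27me3, and the other 8 had both antibodies called in both conditions, against 21.8% of all windows. The EZH2 domains at LHX4 and ISL2 were also the narrowest of the family, from 4.40 to 7.0 kb over both conditions, whereas at the 8 marked genes they ran from 9.40 to 71.0 kb in CPI-0209 and from 16.0 to 53.4 kb in DMSO. Among the 12 housekeeping genes, whose windows held no H3K27me3, the median EZH2 domain was 4.40 kb over the 12 called in CPI-0209 and 7.80 kb over the 10 called in DMSO.

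H3K27me3 covered less of the window in CPI-0209 at 8 of the 8 marked genes, as it did at 92.9% of all genes called in DMSO. Without the 2 kb flanks, LHX1 and LHX3 were covered over 100% of the record in both conditions. The widest H3K27me3 domain was narrower in CPI-0209 at 8 of 8, as it was at 97.9% of all genes called in both conditions, so this direction is that of the lists as a whole. The widths had a median of 18.3 kb in CPI-0209 (13.2 to 31.4 kb) and 40.5 kb in DMSO (17.6 to 95.6 kb). Over all protein-coding genes called, the medians were 6.60 kb in CPI-0209 and 17.0 kb in DMSO. The CPI-0209 width was 19.2% of the DMSO width at LHX1, 33.0% at LHX2, 36.4% at LHX3 and 37.1% at LHX6, whose DMSO domains measured 55.2 kb or more. It was 58.1% at ISL1, 71.9% at LHX5, 75.0% at LHX8 and 86.8% at LHX9, whose DMSO domains measured 25.8 kb or less. Short breaks in the CPI-0209 calls carry part of that contrast. With gaps under 5 kb joined, the widths were 85.6 kb in CPI-0209 and 86.2 kb in DMSO at LHX3, 67.2 kb and 78.2 kb at LHX6, and 54.0 kb and 98.2 kb at LHX2. At LHX1 they were 18.4 kb in CPI-0209 and 148 kb in DMSO. EZH2 showed no common direction, with a wider domain in CPI-0209 at LHX2, LHX3, LHX6, LHX9 and ISL2 and a narrower one at the other 5; LHX6 turned when gaps under 5 kb were joined. Over all genes called in both conditions, 37.3% had a wider and 59.6% a narrower EZH2 domain in CPI-0209.

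**Figure D3:**
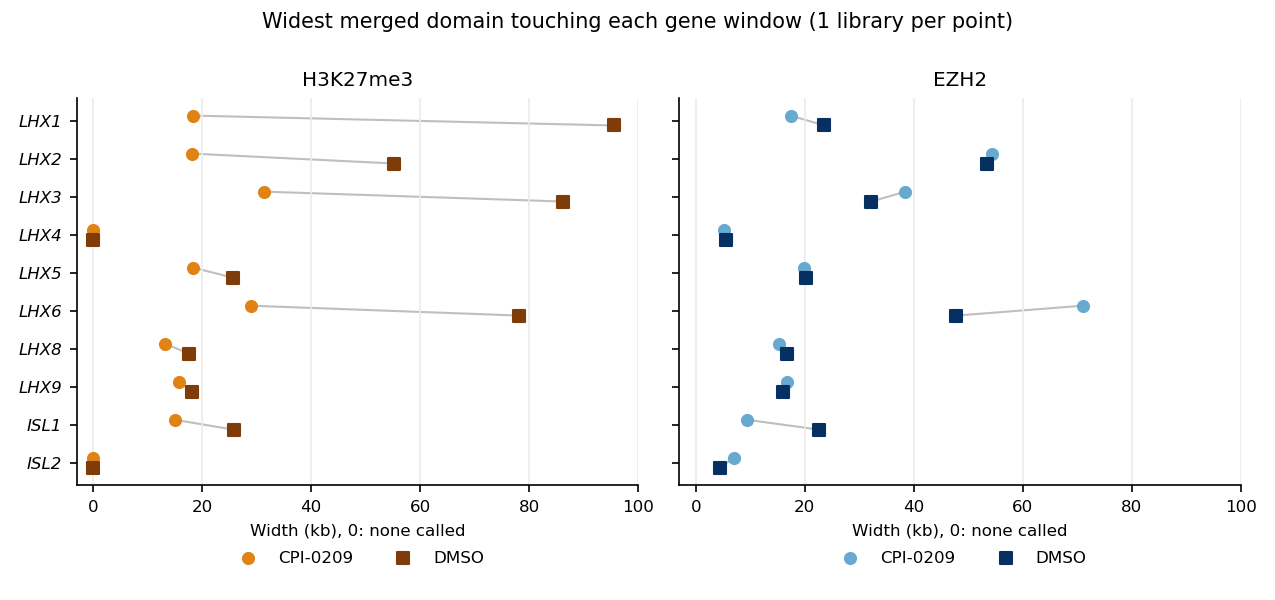
Width in kb of the widest merged domain touching each gene window, for H3K27me3 (left) and EZH2 (right); circles are CPI-0209, squares DMSO, 1 library per point, and 0 means none called. H3K27me3 domains lie between 13.2 and 31.4 kb in CPI-0209 and between 17.6 and 95.6 kb in DMSO, while EZH2 domains differ in either direction.

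Where the calls lay relative to the gene start was read at the 8 genes with RefSeq start windows, all but LHX1 and LHX5, along the strand of each gene. A start window was under H3K27me3 at 6 of 8 genes in CPI-0209 and at the same 6 in DMSO, against 16.4% and 22.3% of all genes with such windows. EZH2 was called there at 8 of 8 in both conditions, against 69.4% in CPI-0209 and 50.6% in DMSO. At these 6 genes the H3K27me3 domain over the outermost start reached further downstream than upstream in both conditions. How often this holds over all genes was not computed. The difference was small at ISL1 in CPI-0209, with 7.05 kb upstream and 7.95 kb downstream. LHX2 was also called in DMSO at 30 and 40 kb upstream, outside that domain. LHX1 was not read here, and most of its 95.6 kb DMSO domain lay outside the gene, on the LHX1-DT side. At 10 kb downstream of the outermost start, H3K27me3 was called at 4 genes in CPI-0209 (LHX2, LHX3, LHX6 and LHX9) and 6 in DMSO, where the background was 6.48% and 14.0%. At 10 kb upstream it was called at 1 gene in CPI-0209 (LHX2) and 2 in DMSO (LHX2 and LHX6), with backgrounds of 6.64% and 17.5%. At 20 kb upstream none of these 8 genes was called in any of the 4 libraries, but at 21 kb upstream 1 was called in each. The background at 20 kb upstream was 6.59% for H3K27me3 in CPI-0209 and 16.9% in DMSO, and 15.6% for EZH2 in CPI-0209 and 12.7% in DMSO.

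**Figure D4:**
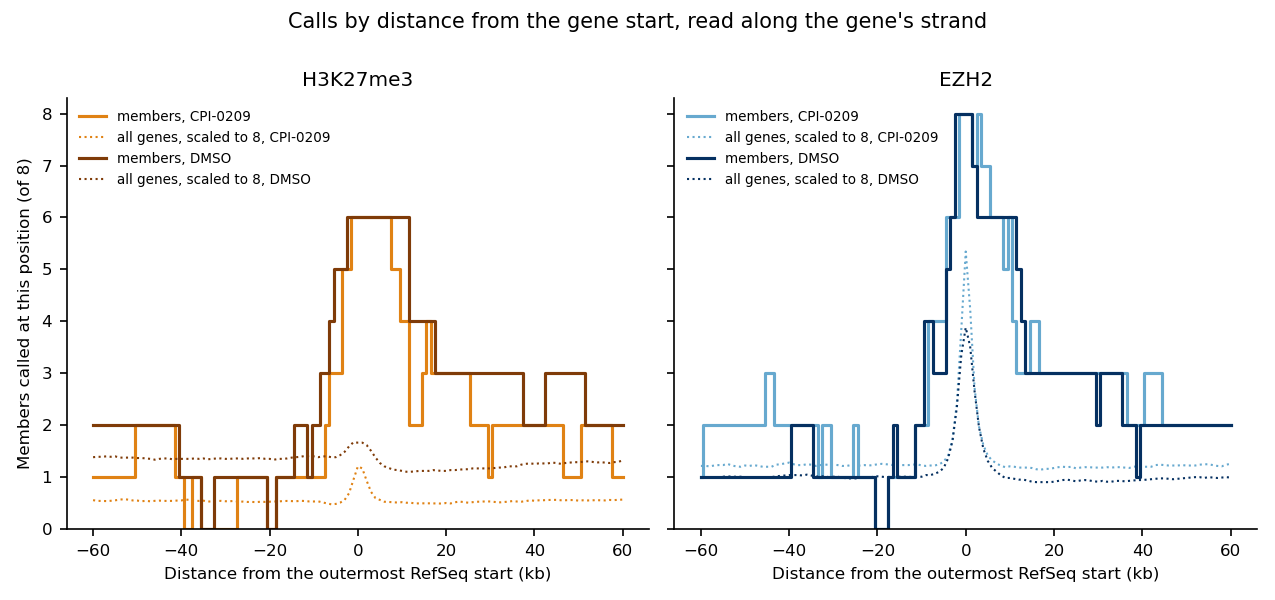
Number of genes, of the 8 with RefSeq start windows, called at each distance in kb from the outermost start, with upstream at negative values (left H3K27me3, right EZH2); dotted lines give all 15813 protein-coding genes with a start window, scaled to 8. H3K27me3 reaches 6 genes at the start in both conditions and EZH2 reaches 8.

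Overlaps of 2 H3K27me3 intervals were also read at the start, though they were not confined to it. The outermost start of LHX2, LHX3, LHX6 and LHX9 was under 2 H3K27me3 intervals in CPI-0209. That was 4 of 8 genes, against 2.35% of all genes with a start window. In DMSO it was 6 of 8, with LHX8 and ISL1 added, against 15.9%. LHX8 had 2 intervals in CPI-0209 over its second start at 75134388 but 1 over its first at 75128434. ISL1 had no stretch under 2 H3K27me3 intervals in its CPI-0209 window, where DMSO had 93.5%, while LHX3 had 85.0% in CPI-0209 and 89.7% in DMSO. For EZH2, the start of ISL2 was under 2 intervals in CPI-0209 and 1 in DMSO, and the start of LHX4 under 1 in CPI-0209 and 2 in DMSO.

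The DMSO H3K27me3 domains of the 8 marked genes were then taken whole, beyond the windows. They total 402.4 kb, and 74.6% of this length was called in CPI-0209, from 55.4% at LHX1 and 66.7% at ISL1 to 86.8% at LHX9 and 97.2% at LHX3. The other 21581 DMSO domains of the genome were retained over 35.8% of their length. The member domains were wider than most (median 40.5 kb, against 8.60 kb) and lay more under EZH2 of DMSO cells (83.8% of length, against 44.3%). Among the 4814 other domains of at least 17.6 kb, the width of the narrowest member domain, 49.6% of the length was retained. Of these, 2629 had at least 50.4% of their length under EZH2, the lowest share among the members, and 64.0% of their length was retained. The median retained share per domain was 73.4% for the members, against 61.9% for these. No test of that difference was made, and single domains in that set ran from 0 to 100%.

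Inside the member domains, retention went with EZH2. Of the 337.2 kb under EZH2 in DMSO, 84.2% was called in CPI-0209, and of the 65.2 kb outside EZH2, 25.2%; in the other domains these shares were 68.6% and 9.71%. LHX1 held 47.4 kb of the 65.2 kb outside EZH2. At LHX1, 84.2% of the length under EZH2 was retained and 26.2% of the length outside it. LHX2 had 96.7% of its domain under EZH2, of which 69.3% was retained, and 11.1% of the 1.80 kb outside. LHX6 had 98.0% of its domain under EZH2 and 78.6% of that retained. At LHX6 the 1.60 kb outside EZH2 was retained over 87.5%, and at ISL1 the 4.00 kb outside over 55.0%, so the order of the 2 shares was reversed at LHX6. Of the 102.2 kb not called in CPI-0209, 46.6 kb (45.6%) lay at the outer edges of the domains and 55.6 kb between retained pieces, of which 35.4 kb at LHX1.

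**Figure D5:**
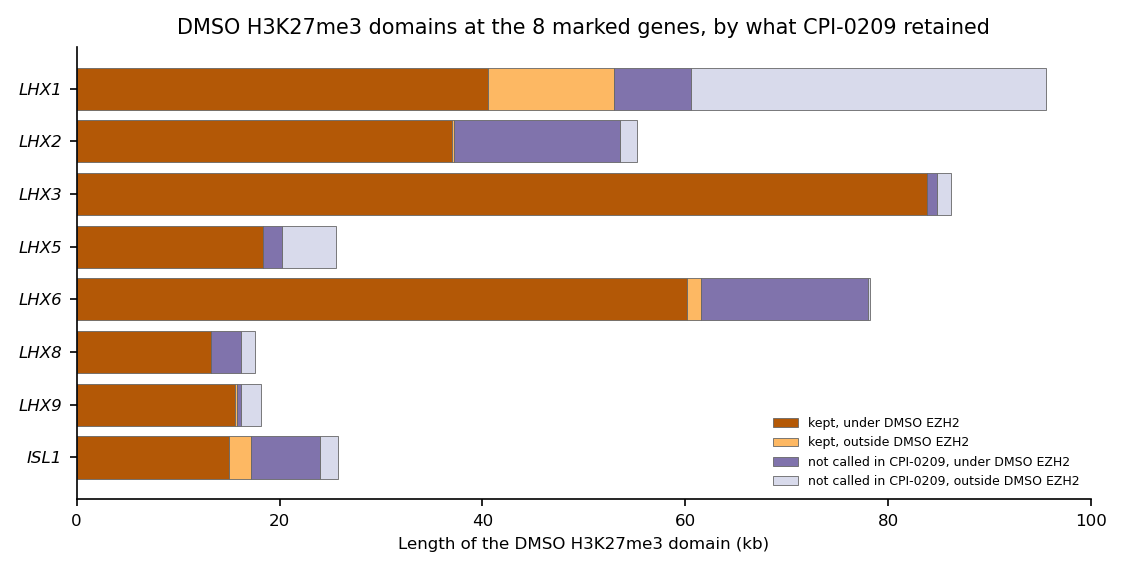
Length in kb of the DMSO H3K27me3 domain at each of the 8 marked genes, split into what CPI-0209 retained or not and whether it lay under EZH2 in DMSO (stacked bars). LHX3 is retained over 97.2% of its 86.2 kb and LHX1 over 55.4% of its 95.6 kb, with most of the uncalled LHX1 length outside EZH2.

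The remaining LIM homeobox genes of the same class, LMX1A and LMX1B, which pattern dopaminergic neurons and the dorsal limb, were both marked and differed from each other. LMX1B was under H3K27me3 over 100% of its window in both conditions, in domains of 103 kb in CPI-0209 and 120 kb in DMSO. LMX1A had 6.49% in CPI-0209 and 28.9% in DMSO, with widest domains of 7.60 kb and 19.6 kb. Of 11 genes for LIM cofactors and LIM-only proteins, 4 were called for H3K27me3 in CPI-0209 and 5 in DMSO, against backgrounds of 24.5% and 34.2%. LMO1, LMO2 and SSBP3 were covered by 89.7%, 76.5% and 76.4% in CPI-0209 and by 100%, 100% and 98.5% in DMSO. LDB2 had 1.30% in CPI-0209 and 18.9% in DMSO, and LMO3 had 0 in CPI-0209 and 11.5% in DMSO. LDB1, which bridges LIM domain proteins, had no H3K27me3 in either condition and EZH2 over 11.1% of its window in CPI-0209 and 0 in DMSO.

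Of 14 partners and targets of LIM homeobox factors, 11 were called for H3K27me3 in CPI-0209 and 12 in DMSO, against backgrounds of 24.5% and 34.2%. For EZH2, 12 were called in both conditions, against 56.3%. GSC, OTX2 and FOXA2, which act with LHX1 in the organiser or forebrain, had 86.8%, 58.8% and 100% of their windows covered in CPI-0209 and 100% each in DMSO. MNX1, a motor neuron factor downstream of ISL1 and LHX3, had 74.9% in CPI-0209 and 89.8% in DMSO. PITX1, a pituitary and hindlimb factor, had no H3K27me3 in CPI-0209 and 21.6% in DMSO. POU1F1 and SST, a pituitary factor and the somatostatin gene, carried neither antibody's calls in either condition. Per gene called in DMSO, the median retained share of the window was 84.1% for the LIM homeobox genes, 83.1% for partners and targets, 77.1% for 13 of 14 NKX homeobox genes, 82.0% for 5 of 6 DLX homeobox genes and 76.5% for the 5 cofactor and LIM-only genes. LMX1A and LMX1B had 22.5% and 100%, and the median over all protein-coding genes called was 32.3%. NKX2-1 is a member of both the partner list and the NKX list, and no difference between the lists was tested.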

How the data were processed

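Interval lists of 4 ChIP-seq libraries from HT1376 cells were used. Per the labels, a service provider ran the immunoprecipitations. The submitters' processing notes name BWA, SICER and hg38 without versions, roles or settings; whether the input library, not analysed here, served as control is not given. Per the file headers, the deposited lists hold coordinates only. Starts count from 0 and all boundaries lie on a 200 bp grid, as checked; printed coordinates count from 1. Shallower sequencing or higher background can shrink or remove calls, and without depth this cannot be told apart from a difference in the mark.

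Overlapping or touching intervals were merged into domains. Coverage is the percent of a gene record plus 2 kb either side (RefSeq, GRCh38.p14) under merged intervals, a call is an overlap of at least 1 bp, and retained length is the DMSO length also covered in CPI-0209. RefSeq start windows run from 250 bases before to 50 after a start, and a gene's start is called where any of its windows is touched. The authors' intervals carry no score, so no filter on strength was possible. The arithmetic (Python 3.11.15, numpy 2.4.6) was tested on simulated data.

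The members and lists (LMX1A and LMX1B, cofactors, partners and targets, NKX, DLX, housekeeping) were chosen with earlier results of these data known. Named were all 10 members, up to 3 neighbours in a member's DMSO domain, and list members as up to 3 examples per outcome or where 5 or fewer were counted; LDB1, MNX1 and PITX1 were chosen after their values were seen, as were the comparison with wide domains, the depth at starts and the motif letters. Alternatives were no flank, a 10 kb flank, gaps under 5 kb joined, stretches under 2 intervals alone, the longer list of each antibody shortened to the other's length by its widest intervals, and stricter overlaps.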

Additional observations from a re-analysis of the deposited data

How the results depend on the processing

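No paired analysis was possible because each group has 1 library and no test was made. Of 99 group values recomputed under the alternatives, 83 stayed close to those reported, 14 moved and 2 reversed. Close meant within 1.5-fold for counts, widths and ratios. For percents it meant inside a 95% binomial interval over 200 bp bins, although neighbouring bins are not independent. Shortening leaves the shorter list of each antibody as it was, so some values could not move. With the DMSO H3K27me3 list shortened to its widest intervals, 4 members were called in DMSO (LHX1, LHX2, LHX3 and LHX6). Of all protein-coding gene windows, 9.41% were called in the shortened list and 34.2% in the full one. In the shortened list 4 members had 50% of the window covered and 3 had a called start. The median widest domain of the called members was 82.2 kb, the retained share 90.9%, and the log2 ratio of covered length reversed to 0.57. That alternative removes narrow DMSO intervals by construction. Over stretches under 2 intervals, the H3K27me3 values were 2 members with 50% covered in CPI-0209, median widest stretches of 7.0 kb in CPI-0209 and 19.7 kb in DMSO, 47.4% retained and a log2 ratio of −1.08. The EZH2 log2 ratio reversed to 0.37 there, and the cause was not tested. The retained share was 89.3% with no flank, 80.6% with a 10 kb flank and 90.4% with gaps under 5 kb joined. At least 80% of the window was under EZH2 in CPI-0209 at 5 members. For the other member counts of this paragraph the share over all genes was not computed, so they have no background. For single genes, 333 of 436 values stayed close and 103 moved. Those that stayed include the H3K27me3 coverage and widths of LHX4 and ISL2, which were 0 under every setting. With 1 library per group and unknown depth, no error between cultures can be given.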

Other observations

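Of the 12 genes that shared a DMSO H3K27me3 domain with a member, 8 were long non-coding RNA genes and 4 protein-coding. On the autosomes and the X chromosome, 19974 of 59098 gene records were protein-coding. The split in other DMSO domains was not computed. LHX1-DT, which lies whole inside the LHX1 domain, had 55.2% of its window under H3K27me3 in CPI-0209 and 100% in DMSO. LHX8-AS1 had 100% in both conditions. LHX5-AS1 had 86.5% in CPI-0209 and 92.9% in DMSO, LHX2-AS1 87.0% and 100%, and ISL1-DT 61.2% and 70.8%. LOC107987037, past the end of LHX2, had 8.26% in CPI-0209 and 46.2% in DMSO, and LOC105376267 on the other side of LHX2 had 100% in both. LOC107987142, at the far edge of the LHX3 domain, had more in CPI-0209, 50.7% against 43.2% in DMSO. Protein-coding neighbours were mostly touched at the domain edge. MORN5 lay 98.8% inside the LHX6 domain and had 60.9% in CPI-0209 and 94.4% in DMSO. Of QSOX2, beside LHX3, 4.22% lay in the domain, of RBM18, beside LHX6, 3.6%, and of C1orf53, beside LHX9, 24.6%. C1orf53 had 15.6% of its window under H3K27me3 in CPI-0209 and 36.2% in DMSO.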
